A study of Mus musculus with 2 samples.

Results

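The genes described here, 9 in number, encode proteins of neutrophil granules or mark neutrophil maturity, and were followed in 2 single-cell libraries of ulcerated mouse skin. They were chosen by symbol from the 33696 genes of the deposited count matrices, and all 9 were present: Ngp, Ltf, Camp, Lcn2, Mmp8, Ly6g, Ifitm6, Retnlg and Siglecf. The choice was made with values of these libraries known, so the levels in neutrophils are given as a description. Neutrophils were cells in which S100a8 and S100a9, the subunits of calprotectin, made up at least 2% of all unique molecular identifiers (UMIs, 1 for each captured RNA molecule). This gave 5227 of 13572 kept cells in the library labelled Has2-transgenic, hereafter the Has2-labelled library, and 6369 of 15692 in the wild-type library.

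The study set ulcerated lesions with whole-body overexpression of Has2, which encodes a hyaluronan synthase, against wild-type lesions, in a model of ulcerative dermatitis. Both samples were labelled with 15 days of daily tape stripping, 40 to 50 times a day, in place of scratching. The treatment label starts in mid-sentence, so an earlier step that both share may not be named in it. The strain, age, sex and number of animals and the promoter of the transgene are not given in the sources used here, and the labels call the molecule polyA RNA for the Has2 sample and total RNA for the wild-type one. With 1 library for each genotype, genotype, animal and library preparation cannot be told apart. No test or replicate error was possible, and every interval below is a 95% interval for counting error only. Has2 itself was at 85.7 CPM (UMIs of a gene per 1000000 UMIs of the cells counted) over all kept cells of the Has2-labelled library and 73.1 CPM in the wild-type library, but at 145 and 188 CPM in fibroblast-like cells and 326 and 172 CPM in keratinocyte-like cells. The wild-type value in keratinocyte-like cells came from 67 UMIs. Has2 UMIs were thus not higher in every class of the Has2-labelled library. The sequence of the transgene is not known here, and whether its RNA is counted among these UMIs was not tested.

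Neutrophils build their granules in sequence while they mature in the bone marrow. Primary granules with myeloperoxidase and elastase come first, then specific granules with lactoferrin, cathelicidin and lipocalin 2, then gelatinase granules. Transcription of each set largely stops when its stage is over, so a neutrophil in tissue carries the proteins but little of the early mRNAs. C/EBP factors, C/EBP epsilon among them, and PU.1 are known regulators of specific granule genes. Ly6g and Retnlg come on late in maturation and mark mature mouse neutrophils. Siglecf is best known from eosinophils and has been described on some tissue neutrophils.

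The 4 members Ngp, Ltf, Camp and Mmp8 lie on mouse chromosome 9, and their promoters are shown because the UMIs of Ngp, Ltf and Camp were the most concentrated in 1 cell in the Has2-labelled library and Ngp with Mmp8 was the pair with the highest co-detection at equal depth, both described below. Each run holds the 250 bases before the annotated start, 5′ to 3′ on the strand of the gene, from RefSeq on build GRCm38.p6, while the counts were made on GRCm39. All 9 members matched the RefSeq table by symbol. Capitals mark matches, on either strand, to 2 motifs: TTGCNNAA, a C/EBP pattern, and GAGGAA, an Ets or PU.1 core, which share no overlap here. Ngp lies at chr9:110419558-110419807 (+), Ltf at chr9:111019042-111019291 (+), Camp at chr9:109849457-109849706 (-) and Mmp8 at chr9:7558179-7558428 (+).
Ngp: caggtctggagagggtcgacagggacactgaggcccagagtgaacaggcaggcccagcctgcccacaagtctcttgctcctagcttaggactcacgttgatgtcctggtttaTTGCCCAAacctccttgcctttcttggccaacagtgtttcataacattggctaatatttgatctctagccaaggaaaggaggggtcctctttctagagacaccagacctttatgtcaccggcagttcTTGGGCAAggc
Ltf: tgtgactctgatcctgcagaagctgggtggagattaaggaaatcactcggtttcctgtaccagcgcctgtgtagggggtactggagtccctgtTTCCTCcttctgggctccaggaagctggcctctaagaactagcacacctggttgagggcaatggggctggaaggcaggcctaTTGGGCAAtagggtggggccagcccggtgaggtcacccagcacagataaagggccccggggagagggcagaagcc
Camp: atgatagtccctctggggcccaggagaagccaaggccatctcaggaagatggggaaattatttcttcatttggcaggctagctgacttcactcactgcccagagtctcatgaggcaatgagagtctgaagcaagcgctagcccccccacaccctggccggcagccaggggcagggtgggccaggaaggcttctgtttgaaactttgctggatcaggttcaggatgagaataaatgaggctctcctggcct
Mmp8: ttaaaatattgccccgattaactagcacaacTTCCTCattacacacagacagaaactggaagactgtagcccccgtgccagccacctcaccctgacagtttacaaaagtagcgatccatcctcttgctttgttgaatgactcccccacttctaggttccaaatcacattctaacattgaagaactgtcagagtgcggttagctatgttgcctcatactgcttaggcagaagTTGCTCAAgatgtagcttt

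Ngp held C/EBP matches that began 138 and 11 bases before the start. Ltf held 1 C/EBP match at 75 bases and 1 Ets match at 157 bases, and Mmp8 held 1 C/EBP match at 19 bases and 1 Ets match at 219 bases. The Camp window held neither motif, which says only that these letters are not in this window. Of 32851 mouse promoters of the same length, 9.56% held the C/EBP motif and 23.3% the Ets motif. A match describes the sequence and does not show a bound site.

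In the Has2-labelled library, most of these genes were lower in neutrophils. Ngp, Mmp8, Ly6g, Ifitm6 and Retnlg were at 0.198 to 0.317 of the wild-type level, Lcn2 was at 0.722, and Siglecf was near the limit of detection in both libraries. Ltf and Camp had higher sums, but 1 cell held much of both. All 9 had at least 20 UMIs over both libraries, the minimum for a ratio. Of these, 5 were at or below 1/2 of the wild-type level, where 8.53% of the 11661 genes measured in neutrophils were so low, and 2 were at least 2 times it, where 5.28% of genes were. Nothing is read from these counts, since the members were picked on this contrast. The median log2 ratio was -1.66 over the members and -0.08 over all genes measured.

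**Figure D1:**
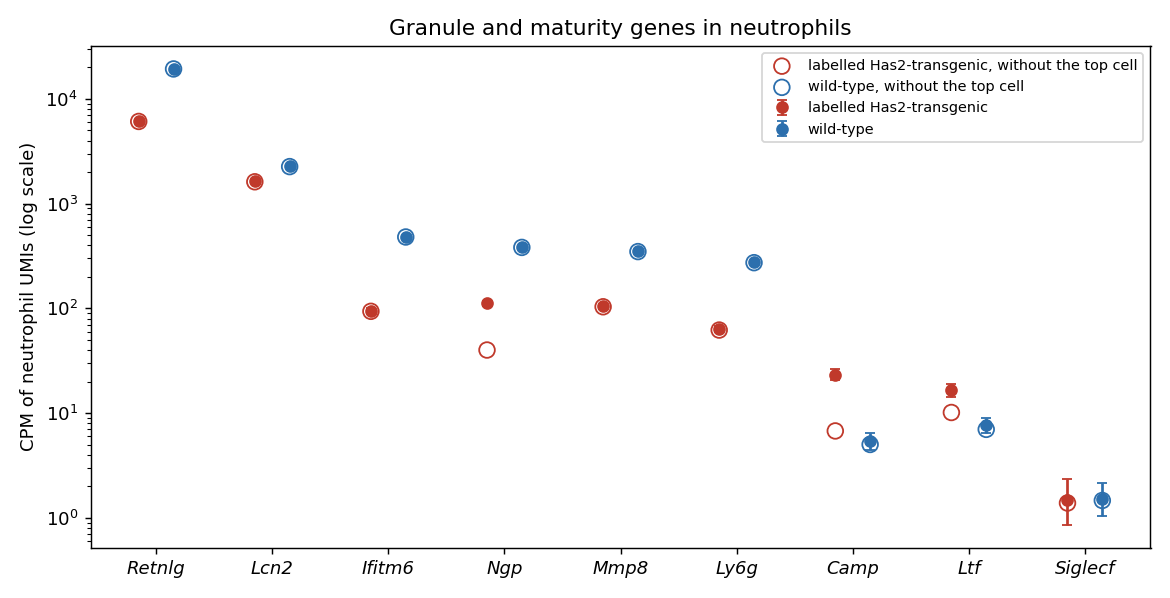
Level of each gene in neutrophils of both libraries, in CPM of summed neutrophil UMIs on a log axis, with the Has2-labelled library in red at left and the wild-type library in blue at right. Bars are 95% Poisson intervals for counting error and open circles the level without the cell that held most UMIs of the gene; Ngp, Camp and Ltf of the Has2-labelled library are the points that shift, to 40.0, 6.76 and 10.1 CPM.

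Ngp (ENSMUSG00000032484), the neutrophilic granule protein of mouse specific granules, had 1296 UMIs or 112 CPM (106 to 118) in the Has2-labelled library and 8228 UMIs or 389 CPM (380 to 397) in the wild-type library. The ratio was 0.289 (0.272 to 0.306). It was found in 3.25% of neutrophils of the Has2-labelled library, against 22.4% of wild-type neutrophils. Ngp was therefore lower in the number of cells that carried it, while the UMIs for each positive cell, at 7.62 and 5.77, ran the other way. That reversal rested on 1 cell with 834 UMIs, 64.4% of all Ngp UMIs of its library. Without the top cell of each library, Ngp was at 40.0 CPM in the Has2-labelled library and 382 CPM in the wild-type library, a ratio of 0.105 (0.0952 to 0.115).

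Lactoferrin, the iron-binding protein encoded by Ltf (ENSMUSG00000032496), had 191 UMIs or 16.5 CPM in the Has2-labelled library and 162 UMIs or 7.65 CPM in the wild-type library. The ratio of 2.16 (1.74 to 2.68) was 1.45 (1.13 to 1.86) without the top cells, which held 38.7% and 8.64% of the UMIs. The share of neutrophils with an Ltf UMI differed by less than its counting error, at 1.97% (1.61 to 2.38) in the Has2-labelled library and 1.87% (1.55 to 2.23) in the wild-type library. Camp (ENSMUSG00000038357), the precursor of the cathelicidin antimicrobial peptide, had 268 UMIs or 23.2 CPM in the Has2-labelled library and 115 UMIs or 5.43 CPM in the wild-type library. Its ratio of 4.27 (3.42 to 5.36) was 1.35 (0.992 to 1.82) without the top cells, which held 70.9% of the Camp UMIs in the Has2-labelled library and 7.83% in the wild-type library. Camp was found in 1.28% of neutrophils of the Has2-labelled library and in 1.22% of the others. For both genes the difference in sums thus lay mostly in 1 cell, and the shares of positive cells had intervals that overlapped.

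Lcn2 (ENSMUSG00000026822), the siderophore-binding lipocalin, is stored in specific granules and is also made by inflamed epithelium and stroma. It had 18956 UMIs or 1640 CPM in neutrophils of the Has2-labelled library and 48125 UMIs or 2273 CPM in the wild-type library, a ratio of 0.722 (0.710 to 0.734). This was close to the ratios of the genes that set the gate, 0.676 for S100a8 and 0.798 for S100a9. For each UMI of S100a8 and S100a9 together, Lcn2 was at 0.968 of its wild-type level. It was found in 58.3% of neutrophils of the Has2-labelled library and in 79.2% of wild-type neutrophils.

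Mmp8 (ENSMUSG00000005800), the neutrophil collagenase, had 1210 UMIs or 105 CPM (98.9 to 111) in the Has2-labelled library and 7391 UMIs or 349 CPM (341 to 357) in the wild-type library, a ratio of 0.300 (0.282 to 0.319). Unlike Ngp, it was spread over many cells. The top cell held 1.16% and 0.311% of the UMIs, and 179 of 708 positive cells of the Has2-labelled library held 50% of them, against 547 of 2656 in the wild-type library. Mmp8 was found in 13.5% of neutrophils of the Has2-labelled library and in 41.7% of the others.

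Ly6g (ENSMUSG00000022582) encodes the surface protein by which mouse neutrophils are usually sorted. It had 733 UMIs or 63.4 CPM (58.9 to 68.2) in the Has2-labelled library and 5819 UMIs or 275 CPM (268 to 282) in the wild-type library, a ratio of 0.231 (0.213 to 0.249). Only 8.25% of neutrophils of the Has2-labelled library held a Ly6g UMI, against 34.1% of wild-type neutrophils, so most cells of the gate showed none in either library. Ifitm6 (ENSMUSG00000059108), of the interferon-induced transmembrane family, had 1102 UMIs or 95.4 CPM in the Has2-labelled library and 10216 UMIs or 483 CPM in the wild-type library, a ratio of 0.198 (0.186 to 0.210), and was found in 13.2% and 45.3% of cells. This was the lowest ratio of the members over summed UMIs, but not without the top cell of each gene, where Ngp was at 0.105 and Ifitm6 at 0.195, nor after thinning, at 0.166 and 0.214. Among the 2768 genes with at least 1000 UMIs over both libraries, of which 2.17% were at or below 1/2, Ifitm6 ranked 4 from the lowest ratio, Ly6g 7, Ngp 14, Mmp8 16, Retnlg 18 and Lcn2 363.

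Retnlg (ENSMUSG00000022651), a secreted resistin-like protein abundant in blood neutrophils, had 70806 UMIs or 6128 CPM in the Has2-labelled library and 409333 UMIs or 19337 CPM in the wild-type library. The ratio was 0.317 (0.314 to 0.319). Here the difference lay mainly in the amount for each cell. A Retnlg UMI was found in 67.8% of neutrophils of the Has2-labelled library and in 94.7% of wild-type neutrophils, but positive cells held 19.98 and 67.9 UMIs on average. Per 10000 UMIs of a cell, the median was 11.04 in the Has2-labelled library and 110 in the wild-type library, with upper quartiles of 48.0 and 256. The distributions overlapped, since the upper quartile of the Has2-labelled library exceeded the lower quartile of the wild-type library, 37.997.

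Siglecf (ENSMUSG00000039013), a lectin that binds sialic acid, had 17 UMIs in the Has2-labelled library and 32 in the wild-type library, each in a cell of its own. That is 1.47 and 1.51 CPM, a ratio of 0.973 (0.507 to 1.81), and 0.325% and 0.502% of neutrophils. No difference was detectable at this depth. The 9 eosinophil markers searched summed to 7.79 CPM in the gate of the Has2-labelled library and 5.10 CPM in the wild-type gate, Siglecf included, and the defining granule genes Epx and Prg2 had 0 UMIs and 1 UMI each. The chemokine receptor gene Ccr3 gave most of that sum in the Has2-labelled library, with 68 UMIs there and 54 in the wild-type library, a ratio of 2.31 (1.59 to 3.36).

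Neutrophils of the Has2-labelled library were shallower, with a median of 2076 UMIs (quartiles 1668 and 2536), against 3089 (2365 and 3888) in the wild-type library, and shares of positive cells depend on depth. Each cell was therefore thinned to 1000 UMIs, which left out 286 cells of the Has2-labelled library and 260 of the wild-type library. Retnlg was then found in 59.5% of cells of the Has2-labelled library and 91.2% of wild-type cells, Lcn2 in 48.4% and 64.4%, Ifitm6 in 7.39% and 25.7%, and Mmp8 in 7.97% and 21.5%. Ly6g was at 4.55% and 17.5%, and Ngp at 1.92% and 13.6%. All 6 had lower shares in the Has2-labelled library, beyond their counting intervals. Ltf, at 0.971% and 0.720%, had intervals that overlapped in this random draw. A second draw from the same cells put Ltf further apart, at 1.09% in the Has2-labelled library and 0.475% in the wild-type library. It put Camp at 0.749% and 0.442%, so for these rare genes the shares depend on the draw. Camp, at 0.810% (0.579 to 1.10) and 0.409% (0.265 to 0.604), had intervals that overlapped only slightly, with a ratio of shares of 1.98. Such overlap does not show that the shares were equal.

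**Figure D2:**
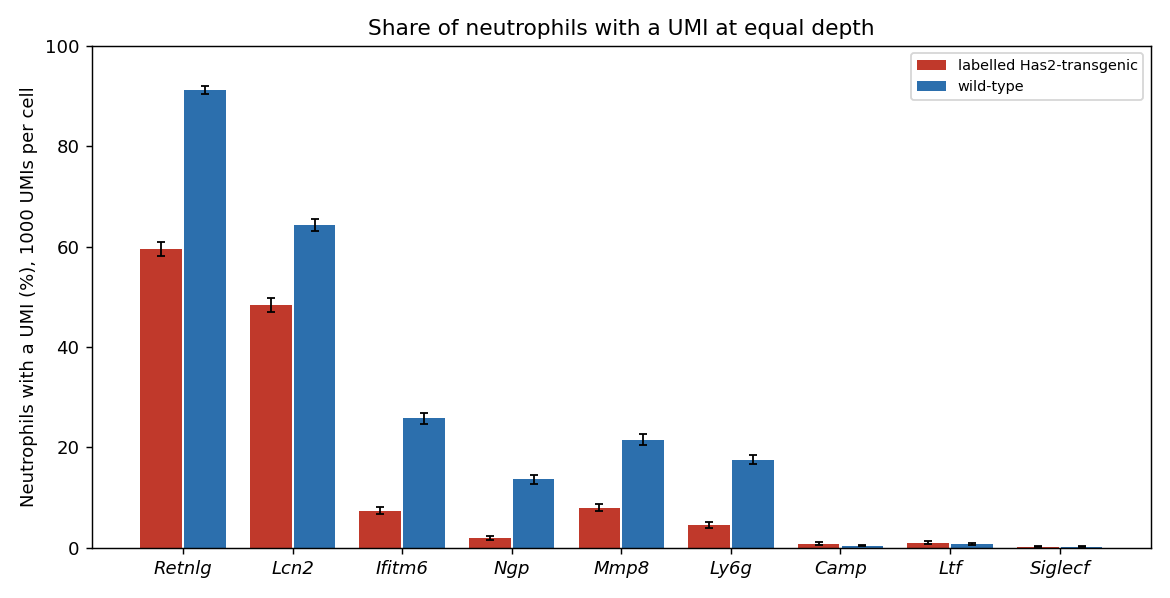
Share of neutrophils with at least 1 UMI of each gene after every cell was thinned to 1000 UMIs, for the Has2-labelled library (red, left bar, 4941 cells) and the wild-type library (blue, right bar, 6109 cells). Black bars are exact 95% binomial intervals; Retnlg shows 59.5% and 91.2%, and Ngp 1.92% and 13.6%.

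Free RNA in droplets can add UMIs to cells that do not make a gene. In T cell-like cells, which should lack these genes, Retnlg was found in 0.629% of 159 thinned cells of the Has2-labelled library and 2.84% of 282 wild-type cells, at median depths before thinning of 3117 and 3709 UMIs. Lcn2 was found in 0 and 1.06% of them, where a count of 0 allows up to 1.89%. Ifitm6 was found in 0 and 0.355% of them, and Ngp, Ltf, Camp, Mmp8, Ly6g and Siglecf had 0 UMIs in T cell-like cells of either library. The thinned neutrophil shares of Retnlg, Lcn2 and Ifitm6 lay above these shares, and those of Mmp8, Ly6g and wild-type Ngp above the limit that 0 of the T cell-like cells allows, 1.89% in the Has2-labelled library and 1.06% in the wild-type library. For the rarer genes, whose shares lay near or below that limit, the larger class of macrophage-like cells was used, of which 3105 of the Has2-labelled library and 3050 of the wild-type library were thinned, from median depths of 6973.5 and 7628 UMIs. Ngp was found in 0 of them in the Has2-labelled library and 0.0656% in the wild-type library, Ltf in 0.0322% and 0.0328%, and Camp in 0 of both, where 0 allows up to 0.0966% and 0.0984%. The neutrophil shares of Ngp, Ltf and Camp given above were higher than these in both libraries. Cells thinned from greater depth keep a smaller part of any free RNA, so these shares may understate its level in neutrophils. In thinned fibroblast-like cells Ngp was found in 0 and 0.151% and Ltf in 0 of both. Camp was found there in 0.685% and 0.753%, the latter above the wild-type neutrophil share of 0.409%. The part of free RNA in the Camp shares was not tested. Siglecf was found in 0 macrophage-like cells, and in neutrophils in 0.121% (0.0446 to 0.264) in the Has2-labelled library and 0.196% (0.102 to 0.343) in the wild-type library.

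The cells just inside the gate, with 2 to 3% of UMIs from S100a8 and S100a9, numbered 189 in the Has2-labelled library and 154 in the wild-type library. They had Retnlg at 1878 and 3396 CPM, Lcn2 at 869 and 1493, Ly6g at 18.6 and 61.4, and Ngp at 10.3 and 38.9. Just outside, at 1 to 2%, 184 and 202 cells had Retnlg at 878 and 2111 CPM, Lcn2 at 499.6 and 546, Ly6g at 5.41 and 34.4, and Ngp at 7.57 and 43.4. Of the cells just inside, 91.01% lay in neutrophil-like clusters in the Has2-labelled library and 49.4% in the wild-type library, so the wild-type edge was the more mixed. Over the whole gate those shares were 99.2% in the Has2-labelled library, with 9 fibroblast-like cells in it, and 97.9% in the wild-type library, with 77. Neutrophil-like cells outside the gate, 250 and 274 in number, had Retnlg at 1578 CPM in the Has2-labelled library and 1471 CPM in the wild-type library, a ratio of 1.07 (0.966 to 1.19), and Mmp8 at 69.5 and 28.9 CPM from 28 and 16 UMIs. Lcn2 was at 658 and 441 CPM there, and Ifitm6 at 67.0 and 85.0 CPM from 27 and 47 UMIs. The lower CPM of Retnlg, Mmp8 and Lcn2 within the gate was thus not seen in these cells of low calprotectin, but the 2 sets were unlike. S100a8 and S100a9 were themselves higher there in the Has2-labelled library, at ratios of 1.30 and 1.45. The wild-type set also included cells of a cluster that had 0 cells of the Has2-labelled library. No absence of a difference is read from this.

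The calprotectin share itself differed, with a median of 10.7% in neutrophils of the Has2-labelled library and 15.0% in wild-type neutrophils, and 6 members, Ly6g, Retnlg, Ngp, Mmp8, Ifitm6 and Lcn2, were higher in the highest than in the lowest bin of that share in both libraries. Camp was lower in the highest bin of the wild-type library, at 4.49 CPM against 22.5 CPM in the lowest. Ltf was nearly level there, at 9.17 CPM in the highest and 8.98 CPM in the lowest bin, the latter from 6 UMIs. In the Has2-labelled library Ly6g was at 18.6 CPM in neutrophils at 2 to 3% and 101.2 CPM in those at 20% or more, and Retnlg at 1878 and 8674 CPM. In the wild-type library the same bins had Ly6g at 61.4 and 411 CPM and Retnlg at 3396 and 25294 CPM. Within 6 bins of equal calprotectin share, Ly6g, Retnlg, Mmp8, Ifitm6 and Lcn2 were lower in the Has2-labelled library in 6 of 6, with ratios of 0.246 to 0.391 for Ly6g, 0.343 to 0.758 for Retnlg, 0.333 to 0.501 for Mmp8, 0.185 to 0.419 for Ifitm6 and 0.582 to 0.897 for Lcn2. Ngp was lower in 5 of 6, the exception being the highest bin, which held the cell with 834 UMIs. In 5 bins of depth, Ly6g, Retnlg, Mmp8 and Ifitm6 were lower in 5 of 5, and Ngp in 4 of 5, the exception being the 21 and 125 cells with at least 8000 UMIs. Lcn2 was lower in 4 of 5, with ratios of 0.676 to 1.13.

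Neutrophils lay in 7 neutrophil-like clusters that held at least 50 cells of each library, found without the members among the variable genes. Ly6g, Retnlg, Ngp, Mmp8 and Ifitm6 were lower in the Has2-labelled library in 7 of 7. The ratios ran from 0.184 to 0.362 for Ly6g, 0.213 to 0.545 for Retnlg, 0.0350 to 0.755 for Ngp, 0.289 to 0.461 for Mmp8 and 0.165 to 0.330 for Ifitm6. Lcn2 was lower in 6 of 7, with 0.634 to 1.01. Ltf was higher in 6 of 7, with 0.949 to 5.40, but from only 4 to 87 UMIs for each cluster and library. The highest ratio was in cluster 0, where 1 cell of the Has2-labelled library held 74 of 87 Ltf UMIs. The share of cells with an Ltf UMI, at unequal depth, was lower in the Has2-labelled library in clusters 0, 1, 2 and 13. It was higher in clusters 4, 11 and 20, so no consistent direction is read for Ltf. The clusters differed among themselves. Clusters 0 and 4 both had S100a9, S100a8 and Retnlg among their top genes. In the Has2-labelled library, cells of cluster 0, which also had the chemokine receptor gene Cxcr2 among them, had Ly6g at 89.8 CPM and Mmp8 at 152 CPM. Those of cluster 4, with Hcar2 and Il36g among its top genes, had 39.2 and 61.9 CPM. In the wild-type library Ly6g was at 399 and 116 CPM in these clusters and Mmp8 at 527 and 134 CPM, so both libraries had the higher level in cluster 0. That cluster held 21.7% of neutrophils of the Has2-labelled library and 30.4% of the others.

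Single cells held very unequal shares of the granule genes. In the Has2-labelled library 1 neutrophil of 8364 UMIs and 1473 genes carried 834 UMIs of Ngp, 190 of Camp and 74 of Ltf, together 62.6% of the UMIs of these genes in that library's neutrophils. The next cell had 32. In the wild-type library the top cell had 152, of which 149 were Ngp, and the following ones 143 and 106. The outstanding cell was in cluster 0, had 26.1% of its UMIs from S100a8 and S100a9, and also held 297 UMIs of Lcn2, 69 of Retnlg, 19 of Chil3, 14 of Cd177, 13 of Ifitm6, 12 of Ly6g and 3 of Mmp8. It had 0 UMIs of Mpo, Elane, Prtn3, Ctsg and Ms4a3, which belong to the primary granule stage, of Cebpe, the C/EBP epsilon gene, and of the proliferation genes Mki67 and Top2a. It thus carried a high amount of the specific granule trio without detected mRNA of the earlier granule stage or of division. It was 1 of 21 neutrophils with at least 8000 UMIs in its library, and the part of depth in these counts was not tested.

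**Figure D3:**
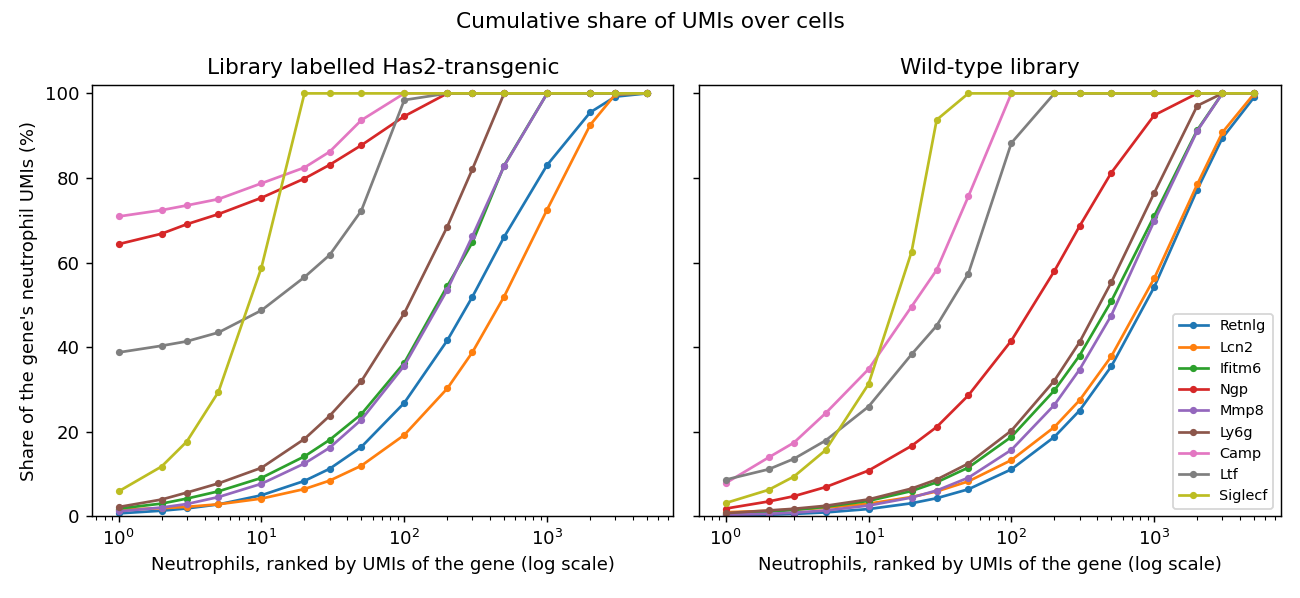
Cumulative share of each gene's neutrophil UMIs (vertical axis, %) against the number of cells, ranked from the cell with most UMIs of that gene (horizontal axis, log scale), in the Has2-labelled library (left) and the wild-type library (right). At the first cell, Camp starts at 70.9%, Ngp at 64.4% and Ltf at 38.7% in the left panel, and no gene starts above 8.64% in the right panel.

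The concentration of Ngp lay in few cells beyond that one as well. The top 10 cells held 75.3% of the Ngp UMIs in the Has2-labelled library and the top cell alone 64.4%, against 10.8% and 1.81% in the wild-type library. At least 10 Ngp UMIs were found in 8 cells of the Has2-labelled library and 227 of the wild-type library. For Camp the top 10 cells held 78.7% and the top cell 70.9% in the Has2-labelled library, against 34.8% and 7.83% in the wild-type library. For Ltf these shares were 48.7% and 38.7% in the Has2-labelled library and 25.9% and 8.64% in the wild-type library. Camp and Ltf were almost always seen as a single UMI, in 85.1% and 85.4% of their positive cells of the Has2-labelled library and 78.2% and 82.4% of those of the wild-type library. For Retnlg, 50% of the UMIs lay in 280 of 3543 positive cells of the Has2-labelled library and 871 of 6031 of the wild-type library, and for Lcn2 in 466 of 3046 and 806 of 5043.

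Neutrophils with a UMI of at least 2 of the genes Ngp, Ltf and Camp were counted as granule-high, a class cut from the counts themselves. There were 11 in the Has2-labelled library, 0.210% of neutrophils (0.105 to 0.376), and 77 in the wild-type library, 1.21% (0.955 to 1.51). All 3 genes were found in 1 and 5 cells, and any of them in 328 and 1540. The granule-high cells were deeper than the rest, with medians of 2826 against 2075 UMIs in the Has2-labelled library and 4383 against 3083 in the wild-type library, and the part of depth in their number was not tested. They held 68.1% of the Ngp UMIs, 74.3% of the Camp UMIs and 40.8% of the Ltf UMIs of the Has2-labelled library, and 14.4%, 53.0% and 46.9% of those of the wild-type library. In the Has2-labelled library this was the cell with 834 Ngp UMIs. Without the top cell of each library, the other 10 held 10.4% of the Ngp, 11.5% of the Camp and 3.42% of the Ltf UMIs in the Has2-labelled library, and the other 76 held 12.8%, 52.6% and 46.2% in the wild-type library. Genes of primary granules gave 0 UMIs in the 11 granule-high cells of the Has2-labelled library and 16 in the 77 of the wild-type library. Genes of dividing precursors gave 0 and 30. The 11 cells are too few for 0 UMIs to be read as a lower level. In the wild-type library primary granule genes were at 34.9 CPM in granule-high cells and 10.8 CPM in other neutrophils, and genes of dividing precursors at 65.5 and 20.6 CPM. Over all wild-type neutrophils, Serpinb1a alone gave 216 of the 239 UMIs of the first list, and Tubb5 315 of the 456 of the second. The 16 and 30 UMIs of granule-high cells were not separated by gene, so no stage is read from these levels.

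Of Ly6g, Ngp, Mmp8 and Ifitm6, the 4 members of middle abundance that were lower, none was detected in 68.9% of neutrophils of the Has2-labelled library and 25.9% of wild-type neutrophils. At 1000 UMIs for each cell these shares were 80.4% and 46.6%. At least 1 UMI of all 4 was found in 4 cells of the Has2-labelled library, 0.0765%, and in 365 of the wild-type library, 5.73%. Cells with several of these genes were thus rare in the Has2-labelled library, where each gene was also rarer by itself.

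Whether the genes met in the same cells more often than their shares alone would give was described by the number of cells with both, over the product of the shares. After thinning, 16 of 18 pairs with a product of at least 5 cells lay above 1 in the Has2-labelled library, with a median of 1.21, and 21 of 27 in the wild-type library, with a median of 1.09. The highest was Ngp with Mmp8 in the Has2-labelled library, 22 cells against a product of 7.58, or 2.90 times. In the wild-type library the same pair met in 251 cells against 179, or 1.40 times. Mmp8 with Ifitm6 was at 1.24 in the Has2-labelled library and 1.42 in the wild-type library, and Ly6g with Ifitm6 at 1.56 and 1.32. Within the granule trio, Ngp and Ltf met after thinning in 2 cells against 0.923 in the Has2-labelled library, too few for a comparison, and in 11 against 5.99, or 1.84 times, in the wild-type library. Ngp and Camp met after thinning in 3 cells against 0.769 in the Has2-labelled library and 4 against 3.40 in the wild-type library, too few in both. With all UMIs, wild-type Ngp and Camp met in 36 cells against 17.5, or 2.06 times, but at equal depth that figure was 1.18. Ltf and Camp met with all UMIs in 3 cells against 1.32 in the Has2-labelled library and 10 against 1.46 in the wild-type library.

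**Figure D4:**
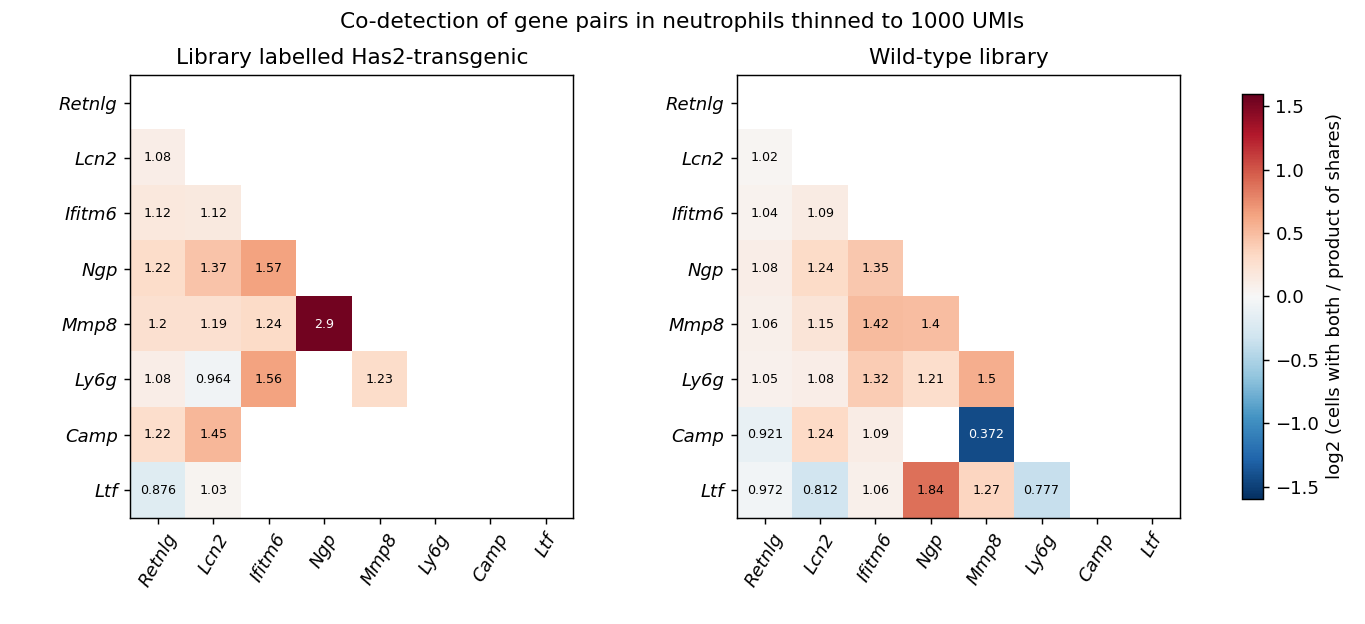
Cells with a UMI of both genes over the product of their shares, in neutrophils thinned to 1000 UMIs, for the Has2-labelled library (left, 4941 cells) and the wild-type library (right, 6109 cells). Numbers are the ratio and colour its log2 value; blank squares are pairs with a product under 5 cells, and Ngp with Mmp8 stands at 2.90 and 1.40.

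Co-detection showed which genes went together, and correlations across cells were weak throughout. Over 5227 Has2-labelled and 6369 wild-type neutrophils, whose points share a library and its depth, the genes most like each member in log-scaled counts were sought among 5990. For Retnlg this was the chemokine gene Ccl6, at Pearson's r of 0.248 and 0.265, for Lcn2 the antimicrobial gene Wfdc21, at 0.199 and 0.2498, and for Ifitm6 its family member Ifitm3, at 0.155 and 0.308. For Mmp8 it was Retnlg, at 0.122 and 0.291, for Ngp Mmp8, at 0.117 and 0.169, for Ly6g Ly6c2, at 0.0972 and 0.159, and for Ltf and Camp it was the other of the pair, at 0.0891 and 0.0811. In sparse counts such values are no finding. Split by Retnlg at 1% of a cell's UMIs, a limit chosen after the values were seen, 778 neutrophils of the Has2-labelled library (14.9%) and 3336 of the wild-type library (52.4%) were Retnlg-high. In the Has2-labelled library Mmp8 was at 166 CPM in the high and 92.5 CPM in the low cells, and in the wild-type library at 477 and 190 CPM, so the direction was the same in both. Ngp was at 96.5 CPM in the high and 115 CPM in the low cells of the Has2-labelled library, where the shares of positive cells, 6.81% and 2.63%, ran the other way and no order is read, and at 572 and 161 CPM in the wild-type library. High cells were also the deeper ones, with median depths of 2292.5 against 2044 UMIs in the Has2-labelled library and 3305 against 2859 in the wild-type library, and the part of depth was not tested.

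Related gene lists, chosen like the members with earlier values known, were counted over the same neutrophils. Of 10 other specific granule genes 9 were measured, 7 lower and 2 higher, with a median log2 ratio of -0.33 against -0.08 over all 11661 genes measured, of which 5050 were higher and 6611 lower. The lower ones included Cd177, a surface protein of specific granules, at 56.4 CPM in the Has2-labelled library and 145 CPM in the wild-type library (ratio 0.389), Olfm4 at 0.478 and Chil3, chitinase-like 3, at 0.513. Lyz2, lysozyme, was at 1.69, the protease inhibitor gene Slpi at 1.35 and haptoglobin, Hp, at 0.992. Of 7 gelatinase granule and secretory genes 6 were lower, with a median of -0.40. Mmp9, the gelatinase itself, was at 245 CPM in the Has2-labelled library and 508 CPM in the wild-type library (0.483), and Slc11a1, a metal transporter of phagosomes, at 1.16. Alpl, alkaline phosphatase, was at 0.204 from 3 and 27 UMIs.

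Primary granule genes other than Serpinb1a were almost absent in both libraries. Mpo, myeloperoxidase, had 7 UMIs in the Has2-labelled library and 9 in the wild-type library, Prtn3 had 2 and 9, Ctsg 0 and 1 and Elane 0 in both, where 0 UMIs allow up to 0.260 and 0.142 CPM. Serpinb1a, an inhibitor of neutrophil proteases and the one gene of the 7 with at least 20 UMIs, was at 0.772. Of 7 genes of dividing precursors 4 were measured, 3 higher and 1 lower, at summed levels of 21.4 and 21.5 CPM. Of 8 granule regulators measured, 6 were higher in the Has2-labelled library, with a median of 0.44. Cebpd was at 114 CPM in the Has2-labelled library and 50.6 CPM in the wild-type library (2.25) and Runx1 at 1.70, while Cebpe had 30 and 61 UMIs (0.901, 0.562 to 1.42) and Gfi1 10 and 29 UMIs (0.632).

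Of 10 genes of mature circulating neutrophils, receptors and others such as S100a6, 7 were higher and 3 lower, with a median of 0.16 and none past 2-fold. Cxcr2, the chemokine receptor that directs neutrophils out of blood, was at 857 CPM in the Has2-labelled library and 814 CPM in the wild-type library (1.05). Csf3r, the receptor of granulocyte colony-stimulating factor, was at 1.17, Il1r2, the decoy interleukin-1 receptor, at 1.61, Trem1 at 1.55 and S100a6 at 0.528. Of 12 genes of aged or tissue neutrophils, a list that includes genes described in neutrophils high in SiglecF, 11 were higher, 3 of them at least 2-fold, with a median of 0.33. Cxcr4, a receptor that increases as neutrophils age, was at 334 CPM in the Has2-labelled library and 139 CPM in the wild-type library (2.40), Ccl3 at 2.21 and Icam1 at 2.04.

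Markers of other cells in the gate differed too. Macrophage markers summed to 658 CPM in the Has2-labelled library and 460 CPM in the wild-type library, monocyte markers to 349 and 683 CPM, fibroblast markers to 368 and 391 CPM and keratinocyte markers to 141 and 3.40 CPM, with no macrophage, monocyte or fibroblast marker at 0 in either. The monocyte list holds Chil3, which neutrophils express. The part of RNA from these cells in the members' levels was not tested.

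Outside neutrophils the members separated into those seen almost nowhere else and those made by other cells. Ngp, Ly6g and Ltf were at no more than 3.88 CPM in each of 13 other classes and unnamed clusters. Siglecf is placed in neither set. It was at 1.34 and 1.33 CPM in dendritic cell-like cells of the Has2-labelled and wild-type libraries, from 2 and 6 UMIs. Its level in neutrophils was 1.47 and 1.51 CPM. Retnlg reached 73.9 CPM in the Has2-labelled library and 270 CPM in the wild-type library, both in Schwann-like cells, where 1 cell held 97.7% of the 43 UMIs in the Has2-labelled library and 94.2% of the 139 in the wild-type library. Per 1000 S100a8 UMIs, Retnlg was at 168 in fibroblast-like and 62.1 in macrophage-like cells of the Has2-labelled library, against 137 in its neutrophils. In the wild-type library it was at 282 and 318 in these classes, with 185 in endothelial-like cells, against 292 in neutrophils, so the figure varied between classes in both. Ifitm6 was highest outside the gate in monocyte-like cells, at 164 CPM in the Has2-labelled library and 182 CPM in the wild-type library, a ratio of 0.900 (0.822 to 0.983), and stood at 35.4 and 33.3 CPM in macrophage-like cells, 1.06 (0.966 to 1.17). Neither was near its ratio of 0.198 in neutrophils.

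Mmp8 was found in monocyte-like cells at 52.6 CPM in the Has2-labelled library and 93.7 CPM in the wild-type library, a ratio of 0.562, in macrophage-like cells at 3.76 and 12.3 CPM, a ratio of 0.305 (0.240 to 0.384), and in an unnamed cluster led by Arg1 and Cd36 at 42.9 and 41.6 CPM, 1.03 (0.862 to 1.23). Lcn2 was at 352 CPM in fibroblast-like cells of the Has2-labelled library and 722 CPM in those of the wild-type library, a ratio of 0.488, and at 84.6 and 84.8 CPM in keratinocyte-like cells, of which there were 186 and 21. Camp had more UMIs in fibroblast-like cells than in neutrophils. It had 483 UMIs or 8.23 CPM there in the Has2-labelled library and 999 UMIs or 21.0 CPM in the wild-type library, a ratio of 0.392 (0.351 to 0.438). Per 1000 S100a8 UMIs, Camp was at 71.5 and 84.3 in fibroblast-like cells but 0.519 and 0.0821 in neutrophils, so the figure differed widely between these classes. Lcn2 was likewise at 3061 and 2901 in fibroblast-like cells and 36.7 and 34.4 in neutrophils.

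**Figure D5:**
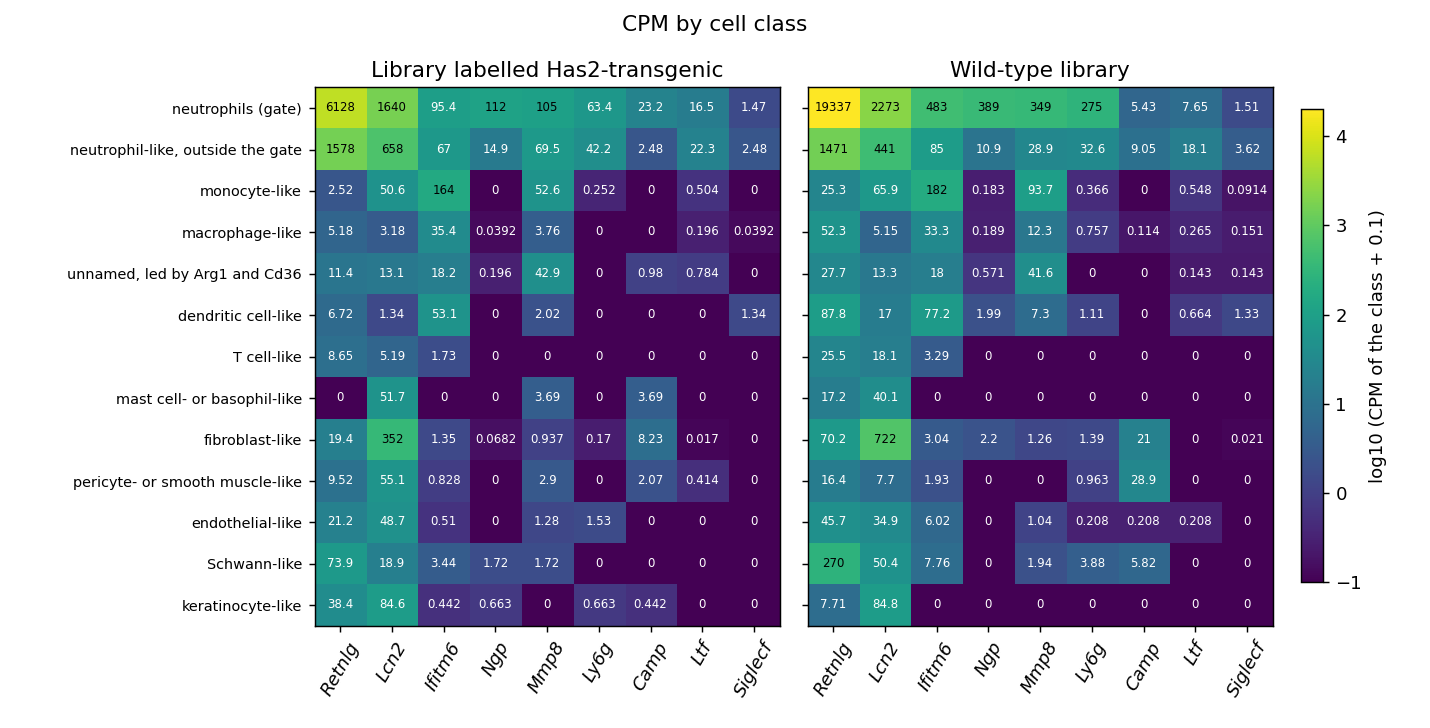
Level of each gene in neutrophils and in other cell classes, in CPM of the class (numbers) with colour on a log10 scale after adding 0.1, for the Has2-labelled library (left) and the wild-type library (right). Ifitm6 stands at 164 and 182 CPM in monocyte-like cells, Camp at 8.23 and 21.0 CPM in fibroblast-like cells, and Ngp at or below 2.20 CPM in every class outside the neutrophil-like ones.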

How the data were processed

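The labels' protocols describe dissociated skin run on the GEM-X 5' v3 kit of 10x Genomics. The deposited files hold raw UMI counts for each gene and barcode, made by the authors in Cell Ranger 9.0.1 against GRCm39, per the submitters' processing notes; the matrices were deposited as filtered ones. The libraries held 14622 barcodes and 134917708 UMIs (Has2-labelled) and 16999 barcodes and 143875454 UMIs (wild-type). No column belonged to no sample (0). Of the kept barcodes 68 occurred in both libraries, 10 of them among neutrophils.

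Barcodes under 200 genes or over 15% mitochondrial UMIs were dropped. Scrublet at its automatic threshold marked 0 and 231 cells, so the expected share, 0.4% per 1000 barcodes, with the highest scores was removed from both alike, 843 and 1145 cells. Median depths of kept cells were 4169.5 and 4175 UMIs. Leiden clustering (scanpy 1.11.5, leidenalg 0.10.2, 3000 variable genes without the members, 30 components, 15 neighbours, resolution 1.0) gave 28 clusters. A cluster was named as like a cell type from at least 3 markers with a CPM of 2 times the median cluster's or more, 10 CPM added, and a UMI in at least 10% of its cells, unless its leading genes went against the name.

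UMIs were summed over neutrophils and scaled to CPM. Intervals are exact Poisson for levels, exact conditional (Clopper-Pearson) for ratios and exact binomial for shares, all at 95% and for counting error only; a count of 0 was given the limit of 3 counts. Ratios have the Has2-labelled library on top. A gene was measured with at least 20 UMIs over both libraries. List medians used log2 ratios with 0.5 counts added. With 1 library for each genotype there was no test. TMM factors came from edgeR 4.0.16. The interval, ratio and thinning code was tested on simulated data.

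The members, gene lists, markers and alternatives were chosen with earlier results of these data known. Named genes were the members, S100a8 and S100a9, the genes of each list with the largest ratio in either direction, others needed to describe a list, and for each member with a UMI in at least 1% of neutrophils the genes most correlated with it in the library where r was lower. Promoters are RefSeq's on GRCm38.p6. No genome of the build of the counts was used here. Values of some genes in the lists are not reported here.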

Additional observations from a re-analysis of the deposited data

How the results depend on the processing

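Ratios of the members were recomputed under 15 alternatives: gates of 1% and 5%, the gate with membership of a neutrophil-like cluster, other limits on genes and mitochondrial UMIs, no doublet removal, other scalings, means over cells, thinning, leaving out the top cell, and 3 chosen after seeing the data. Ifitm6 ran from 0.189 to 0.247, Ly6g from 0.221 to 0.286, Mmp8 from 0.287 to 0.378, Retnlg from 0.303 to 0.397 and Ngp from 0.105 to 0.312, all at or below 1/2 in 15 of 15. Lcn2 ran from 0.690 to 0.829. Ltf ran from 1.45 to 2.33, at least 2 in 10 of 15, and Camp from 1.17 to 5.31, at least 2 in 12 of 15. Averaging CPM over cells put Ngp at 0.172 and thinning at 0.166, and Ltf at 1.51 and 1.57. Siglecf ran from 0.457 to 1.196 and was below 1 in 9 of 15. Scaling by the median of gene ratios or by TMM took a log2 factor of -0.09 or -0.04 off every log2 ratio, which raised all of them, and changed no direction of the 8 members other than Siglecf. Genes at or below 1/2 numbered 995 of 11661 and genes at least 2 times as high 616. These counts were 612 and 609 with a gate of 5%, 513 and 704 with neutrophil-like clusters only, so that the balance turned, 474 and 466 in cells of 2000 to 4000 UMIs, a range chosen after seeing the data, 850 and 771 scaled by the median of gene ratios, 5826 and 2638 with no minimum, and 337 and 237 with at least 100 UMIs. Fewer genes could be measured under each of these but the scaling and the one with no minimum. Depth limits Siglecf, Ltf and Camp most, with 17 to 268 UMIs in a library. No paired analysis was possible because each genotype has 1 library, and the labels' replicate numbers 1 and 2 stand on different genotypes.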

Other observations

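Of the neutrophil-like clusters, 1 held 0 cells of the Has2-labelled library and 124 of the wild-type library, at a median of 1401.5 UMIs. Beside Retnlg and S100a9, its top genes were very long genes such as Ptprd, Lsamp, Nrxn3 and Dmd, which are known from neurons and muscle. Its 46 cells in the gate had Retnlg at 17962 CPM, Ly6g at 252 CPM and Ngp at 98.0 CPM. Cells of 1 library alone cannot be told apart from a feature of that library. Another neutrophil-like cluster, with the interferon response genes Rsad2 and Slfn4 among its top genes, held 146 neutrophils of the Has2-labelled library and 156 of the wild-type library. Its Ifitm6 level was 140 CPM in the Has2-labelled library, against 691 CPM in the wild-type library, and its Ly6g level 130 CPM, against 374 CPM. Camp had 0 UMIs in it in either library.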
